A study of Mus musculus with 6 samples.

Results

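The genes described here are 9 markers of the organs next to the embryonic pancreas. They are 7 genes of liver plasma proteins (Afp, Alb, Apoa1, Apoa2, Apob, Trf and Ttr) and 2 transcription factor genes of the gut epithelium (Sox2 and Cdx2). They were chosen by name, by matching mouse symbols to the 24389 Ensembl gene identifiers of each deposited file, and all 9 were found. RNA came from dorsal pancreata of mouse embryos at embryonic stage E13.5, as 3 libraries from Bicaudal C1 (Bicc1) knockout embryos, called KO 1 to KO 3, and 3 from wild-type embryos, called WT 1 to WT 3. Per-library values are always given in that order of number. Both groups had the same mixed C57BL/6 and ICR background, and the labels do not describe the knockout allele. The labels do not say whether a library came from 1 embryo or from several, so the p-values reflect just the spread among these samples, possibly technical.

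The pancreas, liver, stomach and intestine all bud from the endoderm of the foregut and midgut, and in the embryo the dorsal pancreas lies against the stomach and close to the liver and duodenum. Fetal hepatocytes make most plasma proteins, among them albumin (Alb), alpha-fetoprotein (Afp) and the apolipoproteins. Sox2 specifies the stomach and oesophagus and Cdx2 the intestine, so transcripts of these genes can serve as a gauge of neighbouring endoderm in a dissected pancreas. Transthyretin (Ttr) and transferrin (Trf) are less strict markers: Ttr is also made by glucagon cells of the pancreatic islet and by the choroid plexus, and Trf by several tissues outside the liver.

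Each file gives 1 value per gene with a floor of 0.01, in a unit that its header does not state. The values look like read densities, so changes are read by comparing each gene with itself between libraries. Counts of genes by level and sums over lists set different genes beside each other and are a rough description only. The values of all genes summed to between 674295 and 716255 per library, and these sums are not read totals, so depth is unknown. The pancreatic genes Pdx1 (9.57 to 13.49 in KO and 11.3 to 12.5 in WT) and Cpa1 (211 to 304 in KO and 193 to 273 in WT) were present in every library. Bicc1, the targeted gene, was 3.96, 4.91 and 4.48 in the KO libraries, against 19.7, 19.5 and 18.2 in the WT libraries, and fell by 1.89 on the log2 scale (SE 0.0867, limma adjusted p 0.000674). A principal component analysis put KO 1, KO 2 and WT 3 (side A) opposite KO 3, WT 1 and WT 2 (side B), along an axis with 57.3% of the variance. The sides also differed in how deviations of genes from their mean followed transcript GC content. This rank correlation was 0.503, 0.615 and 0.405 in KO 1, KO 2 and WT 3. It was -0.186, -0.56 and -0.657 in KO 3, WT 1 and WT 2. The sides are not balanced between KO and WT. Differences inside each side, on log2(value + 1), are also given for some genes. Their sign differed between side A and side B in Apoa2 (-0.28 and 0.42) and Ttr (0.15 and -0.08). It also differed in Sox2 (0.06 and -0.16) and Cdx2 (0.02 and -0.05). In Afp, Alb, Apoa1, Apob and Trf the sign was the same on both sides.

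For 0 of the 9 genes did Bicc1 KO differ from WT past the threshold over all genes. In bulk tissue, fewer cells of a type and less RNA per cell cannot be told apart. All 9 lay above the floor in every library. On log2(value + 1), 6 of the 9 means were lower in KO and 3 higher, where 56.1% of all genes and 53.5% of genes tested were higher. In 1 of 9 (11.1%), Trf, the groups did not overlap, and KO lay above WT. Over all 24389 genes the groups did not overlap in 13.9%, with KO above WT in 7.62%. A filter on low values, a mean of at least 1 over the 6 libraries, left 13911 genes and 3 of the 9 (Afp, Trf and Ttr). In limma with Benjamini-Hochberg adjustment over these 13911 genes, 0 of the 3 passed an adjusted p of 0.05, and 0.0144% of all genes tested did. At an unadjusted p of 0.05, 1 of the 3 (Trf, higher in KO) passed, against 10.3% of all genes tested, 5.89% higher and 4.36% lower in KO. The other 6 were under the filter. In a limma fit without a filter their adjusted p ranged from 0.576 to 0.794.

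**Figure D1:**
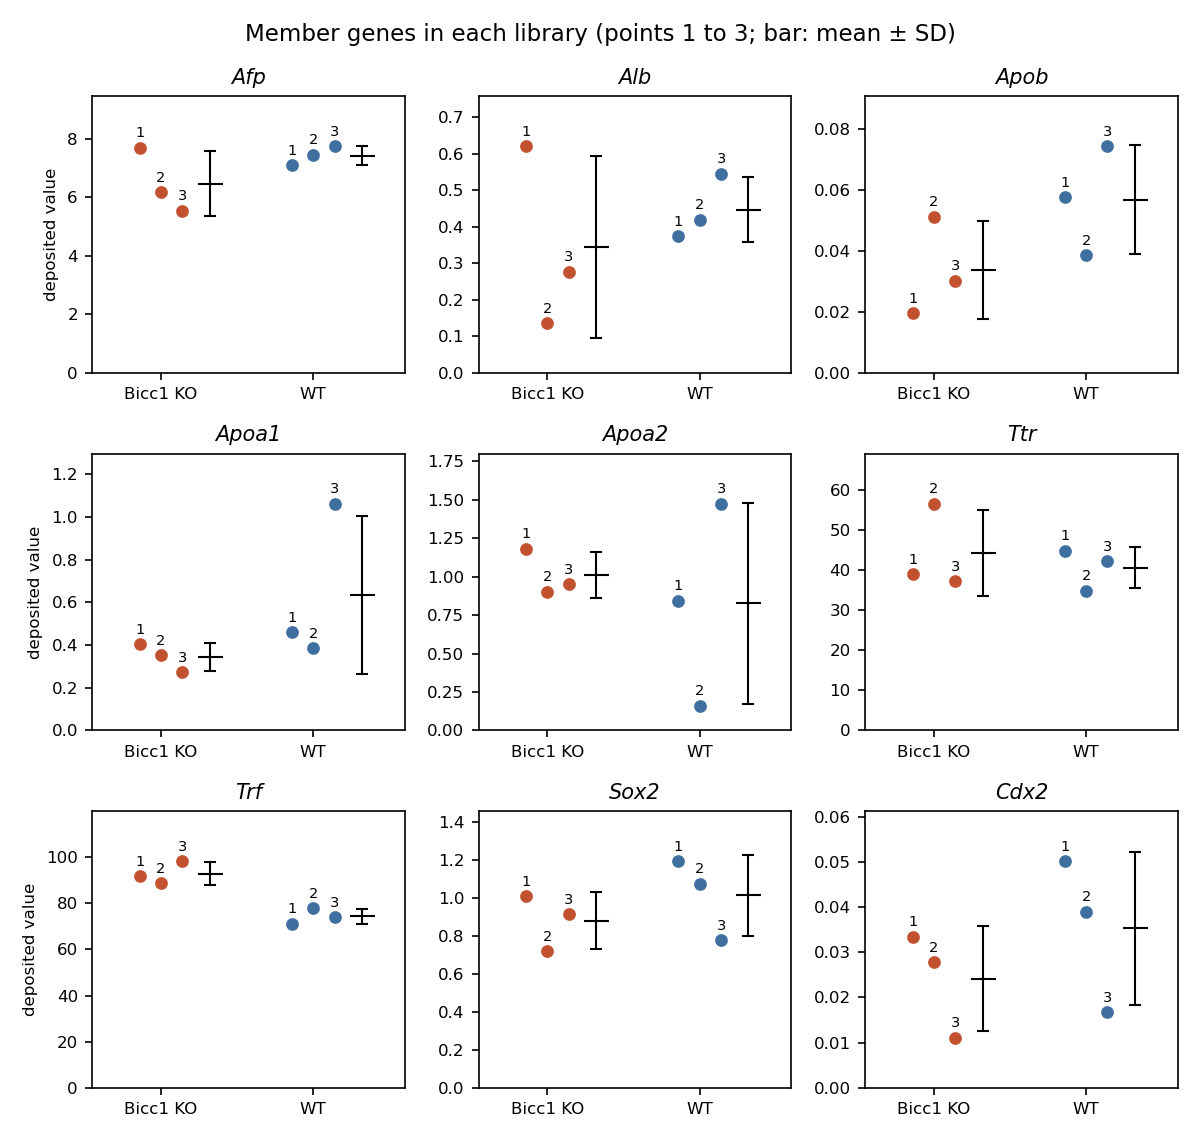
Deposited value (vertical axis, no stated unit, starting at 0) of each of the 9 member genes in the 3 Bicc1 KO libraries (left, orange) and the 3 WT libraries (right, blue). Points carry their replicate number, and the black bar gives the mean ± SD. Trf is the member whose groups do not overlap, with 88.7 to 98.1 in KO and 71.1 to 77.8 in WT, while Alb, Apob and Cdx2 stay below 1 in every library.

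Alb and Afp encode related carrier proteins of adult and fetal plasma. In the reference annotation they are neighbours on chromosome 5, with 0 protein-coding genes between them. Their promoters are shown because these neighbours are widely used liver markers. Their values were unlike, with Afp at 5.54 to 7.73 and Alb at 0.136 to 0.620 over the 6 libraries. How far either gauges liver tissue here was not tested. Each line gives the 250 bases before the transcript start, from RefSeq in build GRCm38.p6, on the plus strand, for Afp at chr5:90490464-90490713 and for Alb at chr5:90460620-90460869. Capitals mark matches, on either strand, to GTTAAT, the leading part of the motif of the hepatocyte factor HNF1, to the TATA box letters TATAAA and to the CCAAT box letters CCAAT.
Afp: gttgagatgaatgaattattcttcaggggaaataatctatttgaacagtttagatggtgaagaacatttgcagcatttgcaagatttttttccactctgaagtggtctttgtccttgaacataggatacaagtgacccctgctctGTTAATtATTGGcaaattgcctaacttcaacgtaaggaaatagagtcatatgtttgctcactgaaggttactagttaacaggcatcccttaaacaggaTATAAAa
Alb: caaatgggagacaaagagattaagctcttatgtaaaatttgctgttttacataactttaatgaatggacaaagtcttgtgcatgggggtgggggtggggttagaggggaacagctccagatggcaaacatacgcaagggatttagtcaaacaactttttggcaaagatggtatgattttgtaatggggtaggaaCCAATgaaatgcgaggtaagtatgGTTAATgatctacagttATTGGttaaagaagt
GTTAAT stood 105 to 100 bases before the start in Afp and 32 to 27 bases before it in Alb. On either strand it occurred in 6.43% of 32851 promoter windows of this length. TATAAA stood 7 to 2 bases before the start in Afp and is held by 12.4% of windows. CCAAT had 1 match in Afp and 2 in Alb, and 33.8% of windows hold it. These matches do not overlap each other and describe letters only.

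Afp (ENSMUSG00000054932) was 7.69, 6.16 and 5.54 in the KO libraries, against 7.09, 7.44 and 7.73 in the WT libraries. The WT libraries were close together, and KO 1 lay among them while KO 2 and KO 3 lay below. The mean was 6.46 ± 1.11 in KO and 7.42 ± 0.324 in WT (n = 3 each, SD). Its log2 difference was -0.18 (SE 0.112, 95% interval -0.45 to 0.079), at a limma adjusted p of 0.498, so it did not pass. The change was -0.15 inside side A and -0.34 inside side B. Without KO 1 it was -0.30 and without KO 3 -0.09.

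Alb (ENSMUSG00000029368) was 0.620, 0.136 and 0.277 in the KO libraries, against 0.374, 0.420 and 0.546 in the WT libraries. Its highest and its lowest value were both in KO libraries. The mean was 0.344 ± 0.249 in KO and 0.447 ± 0.0889 in WT (n = 3 each, SD). A limma fit without a filter gave a log2 change of -0.12 (95% interval -0.44 to 0.20) with an adjusted p of 0.7499. Without KO 1 the change was -0.26 and without KO 2 it was -0.0065, so single KO libraries set its size.

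Apob (ENSMUSG00000020609), the structural protein of the lipoproteins that liver, yolk sac and intestine secrete, stayed near the floor. Its values were 0.0196, 0.0513 and 0.0302 in the KO libraries, against 0.0576, 0.0386 and 0.0743 in the WT libraries. KO 2 lay above WT 2, so the groups overlapped. The limma fit without a filter gave a log2 change of -0.03 (95% interval -0.076 to 0.012, adjusted p of 0.576). Mttp, which loads lipid onto apolipoprotein B, was 1.65, 1.604 and 1.61 in the KO libraries, against 1.59, 1.69 and 1.45 in the WT libraries. Its log2 change was 0.02 (SE 0.0764, adjusted p of 0.897 in limma).

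The apolipoproteins of high-density lipoprotein varied more among the WT than the KO libraries. Apoa1 (ENSMUSG00000032083), its main protein, was 0.405, 0.352 and 0.274 in the KO libraries, against 0.460, 0.386 and 1.06 in the WT libraries. WT 3 stood clear of the other libraries, and KO 1 lay above WT 2. The limma fit without a filter gave a log2 change of -0.26 (95% interval -0.63 to 0.11, adjusted p of 0.579), and without WT 3 it was -0.08. Apoa2 (ENSMUSG00000005681), the second protein of that particle, was 1.18, 0.902 and 0.951 in the KO libraries, against 0.842, 0.161 and 1.47 in the WT libraries. The KO libraries were alike and lay within the wide range of WT, which had both the lowest and the highest value. Its log2 change of 0.20 in that fit (95% interval -0.45 to 0.85, adjusted p of 0.794) was -0.09 without WT 2. Of the 9 genes, 4 (Afp, Apoa1, Apoa2 and Apob) had their highest value in WT 3. The share of all genes that were highest in WT 3 was not counted.

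Trf and Ttr, the carriers of iron and of thyroid hormone and retinol-binding protein, were present at levels well above the floor. Trf (ENSMUSG00000032554) was 91.7, 88.7 and 98.1 in the KO libraries, against 71.1, 77.8 and 73.8 in the WT libraries. Every KO library lay above every WT library, as in 7.67% of all genes tested. The mean was 92.8 ± 4.797 in KO and 74.2 ± 3.34 in WT (n = 3 each, SD), so the KO mean was 125.1% of the WT mean. On log2(value + 1) the change was 0.32 (SE 0.0711, 95% interval 0.15 to 0.48), with an unadjusted p of 0.0024 and an adjusted p of 0.469 in limma, so it did not pass over all genes. It was 0.29 inside side A and 0.39 inside side B. In the reference annotation 63.5% of the exonic bases of Trf are shared with Gm20425 on the same strand, and how reads were divided between them is not known. Gm20425 was 147, 154 and 154 in the KO libraries, against 113, 122 and 134 in the WT libraries.

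Ttr (ENSMUSG00000061808) was 39.1, 56.6 and 37.3 in the KO libraries, against 44.9, 34.9 and 42.2 in the WT libraries. KO 2 was the highest library, and KO 1 and KO 3 lay within the WT range. The log2 difference was 0.10 (SE 0.167, 95% interval -0.29 to 0.49), at a limma adjusted p of 0.787. It was -0.08 without KO 2. Glucagon cells also make Ttr, and their marker Gcg, the glucagon gene, was 148, 226 and 199 in the KO libraries, against 229, 199.7 and 145 in the WT libraries. Among the 6 tested genes of the alpha cell list, none passed limma over all genes (count 0), 3 means were above and 3 below WT, and the median log2 change was -0.0054, against 0.014 over all genes tested. The alpha cell factor Irx2 had a log2 change of -0.14 and the amino acid transporter gene Slc38a5 of -0.02. The part of alpha cells in the Ttr values was not tested.

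The gut factors were low in all libraries. Sox2 (ENSMUSG00000074637) was 1.01, 0.721 and 0.917 in the KO libraries, against 1.20, 1.08 and 0.779 in the WT libraries. The groups overlapped, and the limma fit without a filter gave a log2 change of -0.10 (95% interval -0.35 to 0.15, adjusted p of 0.742). Cdx2 (ENSMUSG00000029646) was 0.0334, 0.0278 and 0.0111 in the KO libraries, against 0.0501, 0.0390 and 0.0167 in the WT libraries. These values were within 0.05 of the floor, KO 3 and WT 3 were the lowest of their groups, and the groups overlapped. The fit without a filter gave a log2 change of -0.016 for Cdx2 (adjusted p of 0.736 in limma). Sox2 is also expressed in neural crest and glia, which this bulk tissue may hold.

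Other genes of liver, stomach, intestine and pancreas were taken from 9 lists, with 135 of 147 listed genes matched. Of the 135, 58 passed the filter and 0 of these passed limma over all genes, while without KO 2 there was 1 past the threshold, among the hepatocyte enzymes. At an unadjusted p of 0.05, 6 of the 58 (10.3%) passed, the same share as among all genes tested. Many hepatocyte transcripts were near the floor in every library, while others were well above it. In the list of other plasma proteins of liver, 10 of 30 matched genes were below 0.1 in all 6 libraries, and so were 8 of 16 hepatocyte enzyme genes. Over all genes 17.1% (4168 of 24389) were this low. Cps1, the first enzyme of the urea cycle, was at the floor in 5 of 6 libraries, and Apoh, a phospholipid-binding plasma protein, was between 0.01 and 0.0305. The pancreas epithelium list had 8 of 9 genes at 1 or more in all 6 libraries, against 54.3% of all genes.

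**Figure D2:**
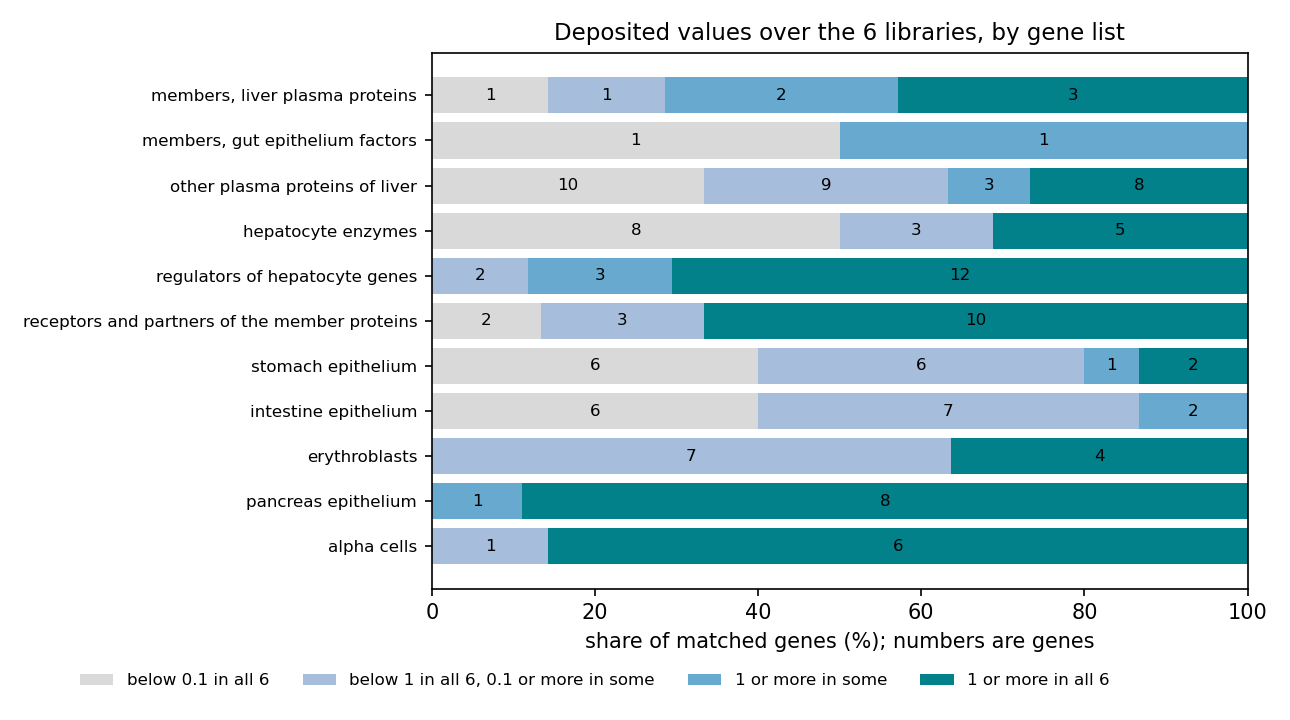
Share of the matched genes of each list (horizontal axis, percent) by the level of the deposited values over the 6 libraries, with KO and WT together and the number of genes written in each bar. In the intestine list 0 of 15 genes and in the stomach list 2 of 15 were at 1 or more in every library, against 8 of 9 in the pancreas epithelium list and 12 of 17 among regulators of hepatocyte genes. Over all genes, which are not drawn, this share was 54.3%.

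Some plasma protein genes were expressed in all libraries. Vtn (vitronectin) was 45.6 ± 6.83 in KO and 48.1 ± 8.66 in WT, and Ambp, the precursor of alpha-1-microglobulin, was 42.9 ± 10.3 and 38.7 ± 3.79 in KO and WT (n = 3 each, SD). Apoe, an apolipoprotein that macrophages and mesenchyme also make, was 19.7, 24.9 and 19.8 in the KO libraries, against 13.7, 12.03 and 19.7 in the WT libraries. WT 3 reached the KO libraries while WT 1 and WT 2 lay below them. Its log2 difference 0.50 (SE 0.177) gave a limma adjusted p of 0.469 and was 0.25 after correction for GC content. Gc, the vitamin D binding protein, which islet alpha cells also express, was 34.0, 42.8 and 32.0 in the KO libraries, against 49.5, 40.6 and 44.4 in the WT libraries. Its log2 difference was -0.30 (SE 0.123), at a limma adjusted p of 0.469. Of the 10 tested genes of this list, 6 means were above and 4 below WT, with a median log2 change of 0.04, against 0.014 over all genes tested.

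Among the hepatocyte enzymes, Ugt2b34, a glucuronosyltransferase with close paralogs between which reads may be shared, was 66.9 ± 5.94 in KO and 78.9 ± 8.79 in WT (n = 3 each, SD; log2 change -0.23, adjusted p of 0.469 in limma). Of the 5 enzymes tested, 2 means were above and 3 below WT, with a median log2 change of -0.13.

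Crp, the acute phase protein C-reactive protein, is in none of the lists and was picked with its values known. The level was 17.9, 14.1 and 15.4 in the KO libraries, against 24.99, 24.2 and 22.4 in the WT libraries, with the KO group wholly below WT, as in 8.77% of all genes tested. Its log2 difference -0.57 (SE 0.0969) gave a limma adjusted p of 0.469.

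**Figure D3:**
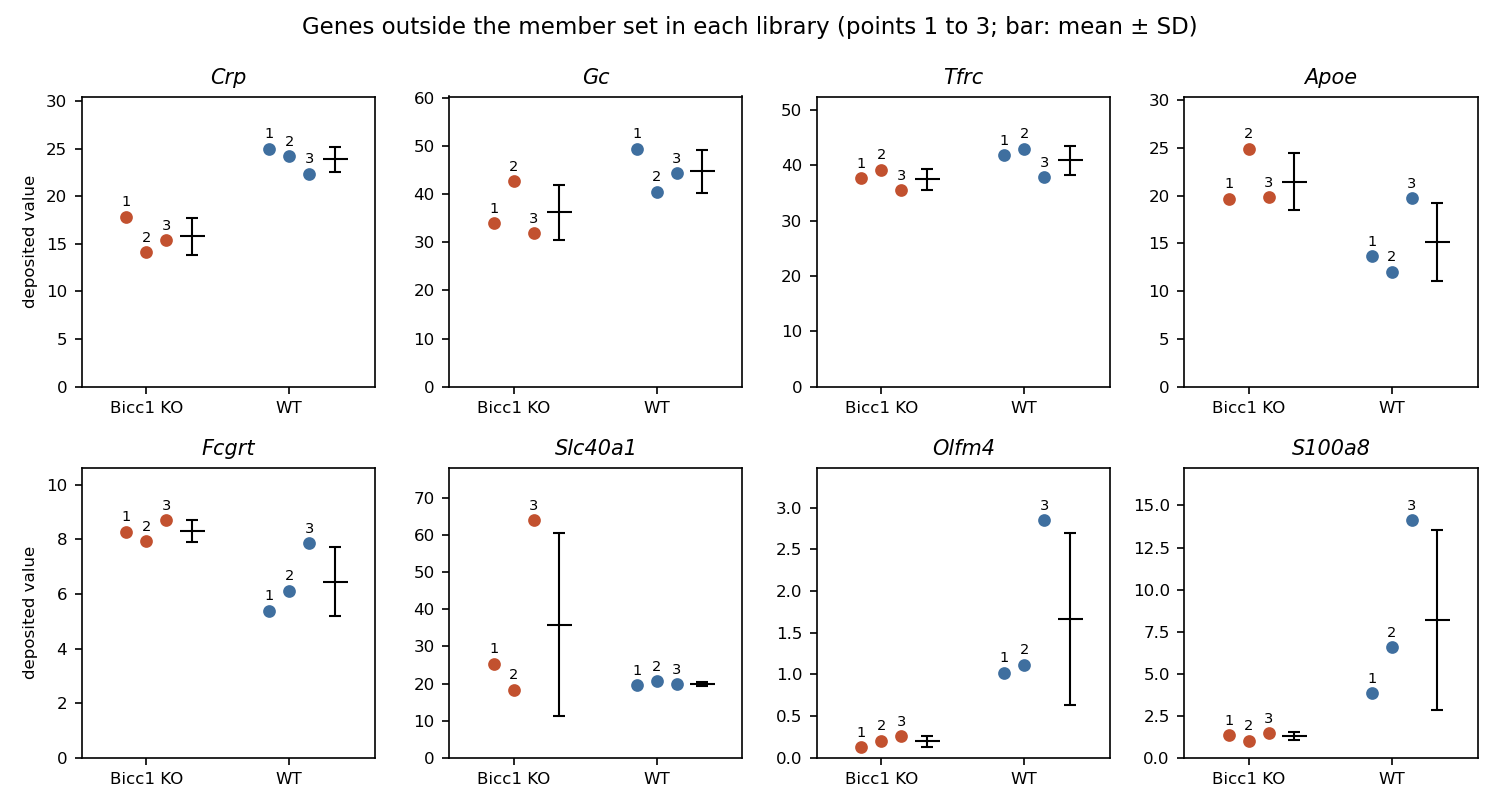
Deposited value (vertical axis, no stated unit, starting at 0) of 8 genes outside the member set in the Bicc1 KO libraries (left, orange) and the WT libraries (right, blue), with the replicate number at each point and the mean ± SD as a black bar. Crp is 14.1 to 17.9 in KO and 22.4 to 24.99 in WT, and in Slc40a1 only KO 3 stands apart.

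Regulators of hepatocyte genes, many of which pancreatic cells share, were mostly present. Of 17, 12 were at 1 or more in all 6 libraries, against 54.3% of all genes. Among the 12 was Hnf4a, with 13.2 ± 1.64 in KO and 14.9 ± 0.944 in WT (n = 3 each, SD). Of 13 tested regulators, 5 means were above and 8 below WT, with a median log2 change of -0.07, and 0 passed limma over all genes. Cebpa, a factor of mature hepatocytes, was 3.07 ± 0.419 in KO and 3.56 ± 0.126 in WT, with groups that did not overlap (log2 change -0.17, adjusted p of 0.487 in limma). Nr5a2, a nuclear receptor of liver and acinar cells, was 20.1 ± 3.22 in KO and 23.3 ± 2.503 in WT. Onecut1, a factor of liver and pancreas whose exons share 52.8% of their bases with another gene on the same strand, was 25.6 ± 9.15 in KO and 22.7 ± 4.56 in WT (n = 3 each, SD). Zhx2, which represses Afp in mouse liver after birth, was 3.00 ± 0.445 in KO and 2.58 ± 0.186 in WT, with an adjusted p of 0.519 in limma.

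Among 10 tested receptors and partners of the member proteins, 7 means were above and 3 below WT, with a median log2 change of 0.04 and 0 past limma over all genes. Tfrc, the receptor of transferrin, was 37.7, 39.2 and 35.5 in the KO libraries, against 41.8, 42.96 and 37.9 in the WT libraries. Its mean was lower in KO, opposite in sign to Trf, but KO 2 lay above WT 3 and the groups overlapped, and the log2 difference -0.12 (SE 0.0762) gave a limma adjusted p of 0.504. Fcgrt, the receptor that recycles albumin and antibodies, was 8.28, 7.94 and 8.71 in the KO libraries, against 5.39, 6.13 and 7.86 in the WT libraries. The groups were apart, with KO 2 just above WT 3. The log2 difference 0.33 (SE 0.123) gave a limma adjusted p of 0.469, and it was 0.04 inside side A, 0.53 inside side B and 0.17 after correction for GC content. Slc40a1, the iron exporter ferroportin, was 64.0 in KO 3, against 18.3 to 25.3 in the other 5 libraries. Its log2 change of 0.61 (adjusted p of 0.511 in limma) was 0.10 without KO 3.

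**Figure D4:**
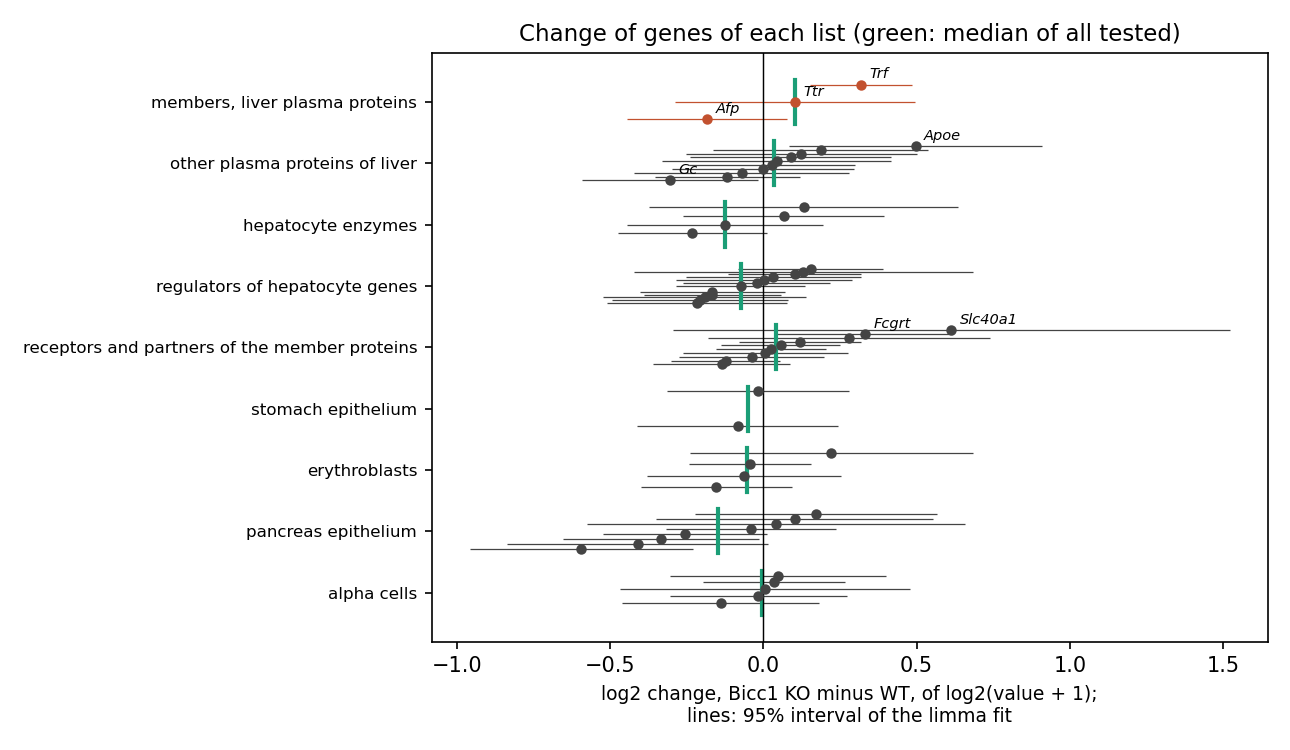
Log2 change of Bicc1 KO minus WT on log2(value + 1) (horizontal axis) for tested genes of each list, where points are the genes reported, thin lines their 95% interval in limma, green bars the median over all tested genes of the list and orange points the members. Most points lie within 0.5 of 0, Trf is at 0.32, and Slc40a1 at 0.61 is the farthest from 0 of those drawn.

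Stomach and intestine epithelium genes gave few values above 1. In the stomach list 12 of 15 matched genes were below 1 in all 6 libraries, and Gkn1 (gastrokine) was at the floor in 5 of 6. Its 2 tested genes were Gata4, a factor that the pancreas itself expresses, with 17.3 ± 3.60 in KO and 18.1 ± 1.38 in WT, and Upk1b (uroplakin), with 4.32 ± 0.825 in KO and 4.34 ± 0.353 in WT (n = 3 each, SD). Their log2 changes were -0.08 and -0.02. Whether the Upk1b values came from stomach epithelium was not tested. In the intestine list 13 of 15 were below 1 in all libraries and 0 passed the filter. Over all genes 40.3% were below 1 in all 6 libraries. Vil1 (villin) was 0.681 ± 0.175 in KO and 0.816 ± 0.0662 in WT (n = 3 each, SD). Cdx1, the partner of Cdx2 in the intestine, was 0.0799, 0.0718 and 0.0369 in the KO libraries, against 0.0246, 0.0553 and 0.0620 in the WT libraries.

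Olfm4 had the highest mean of the intestine list. It encodes olfactomedin 4, a protein of intestinal crypts and of neutrophil granules. Its values were 0.129, 0.204 and 0.257 in the KO libraries, against 1.02, 1.12 and 2.85 in the WT libraries. Every KO library lay below every WT library, as in 6.33% of all genes. The limma fit without a filter gave a log2 change of -1.09 (SE 0.249, adjusted p of 0.494), and with a pseudocount of 0.1 it was -2.45. The neutrophil gene S100a8, picked with its values known, was 1.33, 1.02 and 1.48 in the KO libraries, against 3.86, 6.58 and 14.1 in the WT libraries. Both genes were highest in WT 3, and the part of neutrophils in the Olfm4 values was not tested.

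Fetal liver is also a site of red cell formation, so erythroblast genes were read beside the members. In bulk tissue, such transcripts from liver and from blood within the pancreas cannot be told apart. The summed value of the erythroblast list was 16.2 to 19.4 in KO and 14.8 to 20.2 in WT, with Alas2 and Tmod1 as its largest parts in every library. Alas2, the first enzyme of haem synthesis in red cells, was 9.001, 8.65 and 5.63 in the KO libraries, against 6.45, 4.99 and 8.04 in the WT libraries. Epb42 and Tmod1, of the red cell membrane skeleton, had log2 changes of -0.15 and -0.04, and 0 of 4 tested genes of the list passed limma over all genes. In the pancreas epithelium list, 3 of 8 tested means were above and 5 below WT, with a median log2 change of -0.15 and 0 past limma over all genes. Its lowest p was that of Neurog3, the gene that commits endocrine cells, with 40.0 ± 9.46 in KO and 60.0 ± 5.72 in WT (log2 change -0.59, adjusted p of 0.469 in limma). Ptf1a, a factor of pancreatic progenitors and acinar cells, averaged 3.75 ± 0.545 in KO, against 5.02 ± 0.952 in WT. Sox9, of progenitors and ducts, averaged 48.4 ± 7.91 in KO and 57.5 ± 2.69 in WT (n = 3 each, SD). Exons of Ptf1a, Neurog3, Alas2 and Tmod1 overlap genes on the other strand, and since this kit keeps no strand their reads cannot be told apart.

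The 8 genes whose profile over the 6 libraries was most like that of Alb were found by the root mean square difference of centred log2(value + 1), among 13908 genes with a mean of at least 1. It was 0.0464 to 0.0652, against 0.17 for a flat line. Alb was 0.136 to 0.620, a range where log2(value + 1) shrinks differences. With a pseudocount of 0.1 the log2 change of Alb was -0.44, in place of -0.12. The likeness to genes of high value was measured on log2(value + 1) only, and another pseudocount was not tried for it. Of the 8, 4 are encoded in the mitochondrial genome (mt-Nd1, mt-Atp8, mt-Co3 and mt-Atp6), and the others are Gm14859, Gm12013, the histone gene Hist1h4i, which has near-identical copies, and 1 identifier without a symbol. The order of the libraries by mt-Nd1, a subunit of respiratory complex I, was that of Alb, with 3983, 3018 and 3038 in the KO libraries, against 3323, 3583 and 3746 in the WT libraries. None of the 8 is a liver marker of the lists, but the search could find few of these. The members were left out of it. Genes under the filter were left out too, among them 20 of 30 other plasma protein genes and 11 of 16 hepatocyte enzyme genes. Whether low liver genes are more like Alb was not tested.

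**Figure D5:**
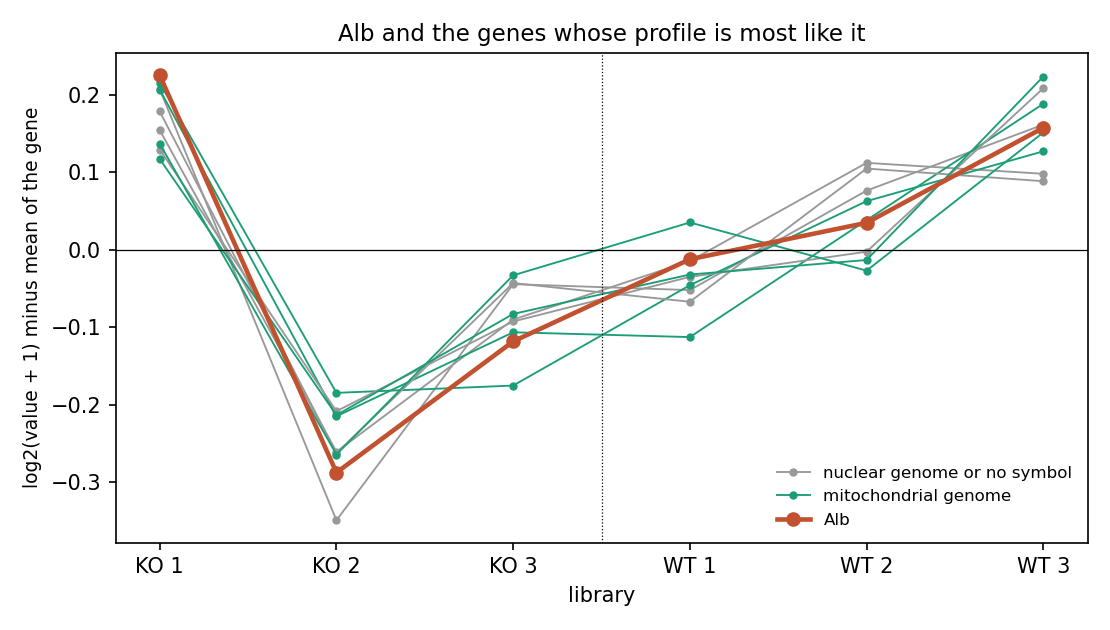
Deviation of log2(value + 1) from the mean of each gene (vertical axis) in the 6 libraries (horizontal axis, Bicc1 KO left of the dotted line, WT right of it) for Alb (orange) and the 8 genes most like it (green for the mitochondrial genome, grey for the others). All are highest in KO 1 or WT 3 and lowest in KO 2.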

How the data were processed

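Total RNA of E13.5 dorsal pancreata was purified (RNeasy Plus Micro) and sequenced as TruSeq RNA v2 libraries, per the labels' protocols. Per the submitters' processing notes, CASAVA 1.82 and Bowtie 0.12.7 were used with mm9. How genes were annotated, counted and normalized is not given here. In the deposited data there is a signal per gene that is never negative, made by the authors. Symbols were found for 22624 identifiers (92.8%), and listed genes without a match were not analysed here. The annotation (GENCODE M21, GRCm38) served for names, GC content, gene order and exon overlap.

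Values were used without further scaling. limma 3.58.1 in R 4.3.3 (two-sided, with trend, by group alone) was run on log2(value + 1), which understates changes of low genes, over the 13911 genes with a mean of at least 1, with Benjamini-Hochberg adjustment and a threshold of 0.05, and was tested on simulated data. An exact test of 3 against 3 cannot give a p under 0.1. The members, lists and tests were chosen with earlier results of these data known. Beside the 9 members and Bicc1, the rule for naming takes from each list up to 4 genes past the threshold, or otherwise the 2 of lowest p and the 2 of highest mean, and the 8 genes most like Alb. Pdx1, Mttp, Gm20425, Cps1, Apoh, Hnf4a, Zhx2, Gkn1, Cdx1, Crp and S100a8 were named after their values were seen. Some results of the listed genes are not reported here. A motif search used both strands. Alternatives were other scalings, filters, pseudocount and moderation, a GC correction (loess, span 0.3), the side of the first component, each library left out in turn and a block for replicate number. Same-numbered libraries did not deviate together (correlations -0.22, -0.40 and -0.64). Tables used Python 3.11.15, numpy 2.4.6 and pandas 2.3.3.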

Additional observations from a re-analysis of the deposited data

How the results depend on the processing

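0 members passed limma over all genes under the alternatives run, and Trf stayed higher in KO in all 17, with log2 changes from 0.23 to 0.35 and adjusted p from 0.138 to 0.908. Afp stayed lower in KO in all 17 (-0.30 to -0.09). Ttr changed sign when libraries were left out (-0.081 to 0.21), to -0.081 without KO 2 and -0.0003 without WT 2. With a pseudocount of 0.1 the log2 change was -0.44 for Alb, -0.63 for Apoa1, 0.60 for Apoa2, -0.23 for Apob and -0.12 for Cdx2. After GC correction, with or without the replicate block, it was 0.011 for Apob and -0.16 for Cdx2, both near the floor. The same correction gave -0.12 for Alb, -0.40 for Apoa1, 0.15 for Apoa2 and -0.12 for Sox2. For Apoa1 the limma adjusted p was then 0.540, and 0.782 with the block. Leaving out 1 library gave -0.26 to -0.0065 for Alb, -0.37 to -0.08 for Apoa1, -0.09 to 0.46 for Apoa2, -0.04 to -0.02 for Apob, -0.18 to -0.03 for Sox2 and -0.03 to -0.0052 for Cdx2. The causes were not tested.

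Over all genes, 0 were called higher and 2 lower in KO. The higher count was 1 with scaling by the sum of values and after GC correction, and 0 to 3 with 1 library left out (3 without KO 2). The lower count was 1 without a filter, 1 to 4 with 1 library left out (4 without KO 2, and 1 without KO 1, KO 3, WT 1 or WT 3), 0 with the replicate block and 1 with the block and GC correction. Bicc1 itself had an adjusted p of 0.088 with the block. Same-numbered libraries did not deviate together, but this does not settle whether library numbers pair the samples. No member's call changed with the block. Depth is unknown, so values near the floor of 0.01 have no counting error that can be given.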

Other observations

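The liver genes under the filter on low values were highest most often in WT 3. These are 35 genes of the member and liver lists that were above the floor in at least 1 library. WT 3 held the highest value of 12 of them, against 2 to 6 for each other library. The same share over all genes under the filter was not counted, so this is not a result about liver genes. WT 3 and KO 1 also had the largest sums over all genes (716119 and 716255). The summed value of the 35 genes was 6.41, 6.37 and 5.51 in KO 1, KO 2 and KO 3, against 6.32, 5.46 and 9.21 in WT 1, WT 2 and WT 3. Apoa2 (1.47) and Apoa1 (1.06) made the largest parts of the WT 3 sum. Fga, the fibrinogen alpha chain, chosen after its values were seen, was 0.157, 0.104 and 0.130 in KO 1, KO 2 and KO 3, against 0.173, 0.242 and 0.372 in WT 1, WT 2 and WT 3.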
